A study of Mus musculus with 8 samples.

Results

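The insulin-like growth factor (IGF) system was described through 10 genes, the ligand genes Igf1 and Igf2, the receptor genes Igf1r and Igf2r, and the binding protein genes Igfbp2 to Igfbp7, taken by gene name from a table of 21692 genes. All 10 were present and all 10 passed the filter on low counts, as did 15517 genes in all. The RNA came from forelimb buds of CD1 mouse embryos of gestation day 13 that were kept in culture for 24 h. One group of 4 libraries received the vehicle dimethyl sulfoxide (DMSO). The other group of 4 received organophosphate esters (OPE), compounds used to retard flame and soften plastics, as a house-dust mixture diluted 1 in 300000. Both groups share strain, age, tissue and time in culture. They are called vehicle 1 to 4 and OPE 1 to 4 by the replicate numbers of the labels, which do not say how many embryos, litters or cultures a library holds, so p-values measure the spread between these libraries and part of it may be technical.

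IGF1 and IGF2 are secreted growth factors that drive growth of the embryo and of cartilage by activating the receptor tyrosine kinase IGF1R. IGF2R binds IGF2 and carries it to the lysosome, and the binding proteins hold the ligands in the extracellular space, where proteases release them. In the limb, IGF signalling is known for its part in the proliferation and enlargement of chondrocytes and in muscle growth.

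Total counts per library ranged from 17549560 to 22006738 with vehicle and from 14986793 to 21806141 with OPE. The forelimb gene Tbx5 had a normalised read count of 284 ± 11.1 CPM (counts per 1000000 of the scaled library total) with vehicle, the hindlimb gene Pitx1 had 3.32 ± 0.705, and the limb mesenchyme gene Prrx1 had 459 ± 31.3 (mean ± SD, n = 4). OPE 3 stood apart from the other libraries. Its ribosomal protein genes took 8.23% of the counts against 4.11% to 5.28% in the other 7 libraries, and its expression was tilted toward short genes, with a slope of log2 CPM on log2 gene length of -0.21 against -0.03 to 0.10 elsewhere. Results that rest on OPE 3 are given with and without it.

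None of the 10 IGF system genes passed the threshold of an adjusted p of 0.05 in the comparison of OPE with vehicle (edgeR quasi-likelihood test, Benjamini-Hochberg adjustment over all genes tested), where 0.477% of all genes tested passed. At an unadjusted p under 0.05 there were 2 of the 10, Igfbp3 and Igf1, beside 2042 of the 15517 genes tested. DESeq2 called 1 of the 10, limma-voom 0, and limma-voom with sample weights 1, the called gene being Igfbp3 in both cases. DESeq2 called 3.11% of its genes tested, limma-voom 0.651% and its weighted fit 2.87%. The median log2 fold change of the 10 genes was -0.26, with 7 below 0 and 3 above, against a median of 0.01 over all genes tested. Without OPE 3 the median of the 10 was -0.20. In Igfbp3 alone among the 10 did all 4 OPE values lie on the same side of the vehicle range, below it. Such separation, to either side, was seen in 9.49% of all genes tested (5.44% with OPE lower).

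**Figure D1:**
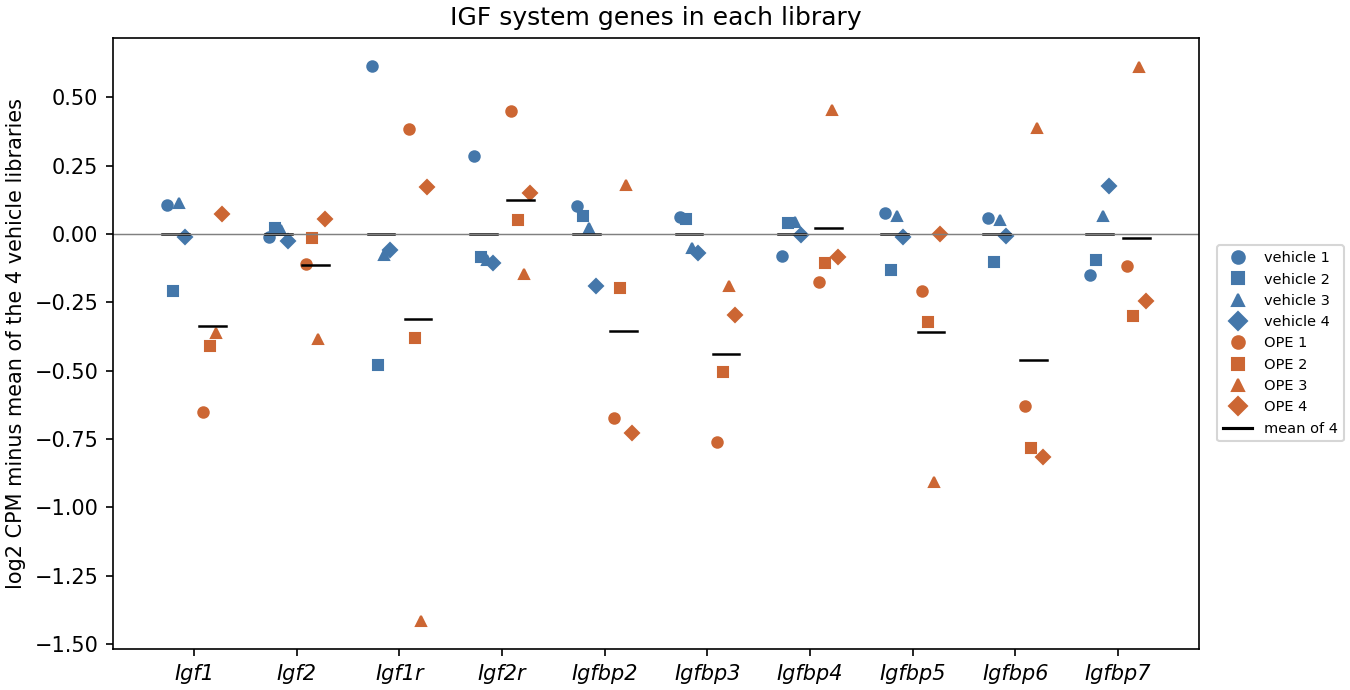
Log2 CPM of each IGF system gene in each library, as the difference from the mean of the 4 vehicle libraries; marker shape gives the replicate number, colour the group, and the black bar the group mean. Igfbp3 is the gene whose 4 OPE points all lie below its 4 vehicle points, and OPE 3 (triangle) is the highest of 8 for 4 genes and the lowest of 8 for 4 genes.

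The promoter sequences of Igfbp3, the gene of smallest p, and of Igfbp4, the most abundant binding protein gene, are shown because the results on the binding proteins turn on these genes. Each holds the 250 bases upstream of the RefSeq start in GRCm38.p6 (the assembly named mm10), read 5′ to 3′ on the strand of the gene, chr11:7213924-7214173 on the minus strand for Igfbp3 and chr11:99040994-99041243 on the plus strand for Igfbp4. Capitals mark the motif TATATA and both copies of the motif GCGTG in Igfbp3, and the motif TATAAA in Igfbp4; the marked matches do not overlap. Both strands were searched for these and for the hypoxia core ACGTG, the GC box GGGCGG and the amino acid response motif TGATGCAA, which are not in these 2 windows.
Igfbp3: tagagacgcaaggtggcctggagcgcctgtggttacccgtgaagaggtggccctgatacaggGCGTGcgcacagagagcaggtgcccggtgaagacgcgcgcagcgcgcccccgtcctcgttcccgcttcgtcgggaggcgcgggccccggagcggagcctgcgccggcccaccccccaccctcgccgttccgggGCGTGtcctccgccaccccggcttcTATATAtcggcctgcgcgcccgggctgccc
Igfbp4: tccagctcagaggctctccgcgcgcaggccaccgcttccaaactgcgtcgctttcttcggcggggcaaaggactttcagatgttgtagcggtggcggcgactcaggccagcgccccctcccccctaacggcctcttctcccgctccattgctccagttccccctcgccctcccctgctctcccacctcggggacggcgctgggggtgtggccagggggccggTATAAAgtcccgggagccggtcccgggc

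Igfbp3 has TATATA beginning at -30 from the start, and Igfbp4 has TATAAA beginning at -28. Among 32851 promoter windows of the same length, TATATA was found in 5.25% and TATAAA in 12.4%. GCGTG, which with ACGTG is the core of the hypoxia response element, occurred at 2 places in the Igfbp3 window and in 28.2% of all windows, and ACGTG in 16.6% of all windows. GGGCGG was found in 32.7% of all windows and TGATGCAA in 0.791%. The 10 genes had 14 promoter windows in the RefSeq table, since Igf2 and Igfbp2 have several starts, and 3 windows held either TATA motif (those of Igfbp3, Igfbp4 and Igfbp6). A match of these letters is a description of the sequence only.

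In vehicle libraries the genes spanned a wide range of levels per length, here the FPKM values of the authors (counts scaled by deposited gene length and library total). Igf2 was by far the highest, with 2263 ± 36.6 FPKM (mean ± SD, n = 4), and alone took between 1.05% and 1.09% of all counted reads in the vehicle libraries. Igfbp4 followed with 451 ± 19.4 FPKM, Igfbp5 with 227 ± 14.0, Igfbp3 with 142 ± 6.37 and Igfbp2 with 91.7 ± 7.59. Lower still were Igf2r with 52.9 ± 7.17 FPKM, Igf1 with 27.1 ± 2.61, Igf1r with 18.6 ± 6.12 and Igfbp7 with 17.0 ± 1.86. Igfbp6 was the lowest, with 3.51 ± 0.169 FPKM. The vehicle ranges of neighbours in this order overlapped for Igf1 and Igf1r and for Igf1r and Igfbp7, and did not overlap for the other 7 pairs of neighbours. The order with OPE was the same except that Igfbp7 stood above Igf1r. The place of Igf1r rests on the deposited gene length of 4489 bases. With the exon union of GENCODE M21, 16791 bases, its vehicle mean was 4.97 FPKM and it came below Igfbp7, while 8 of the 10 genes kept their rank.

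**Figure D2:**
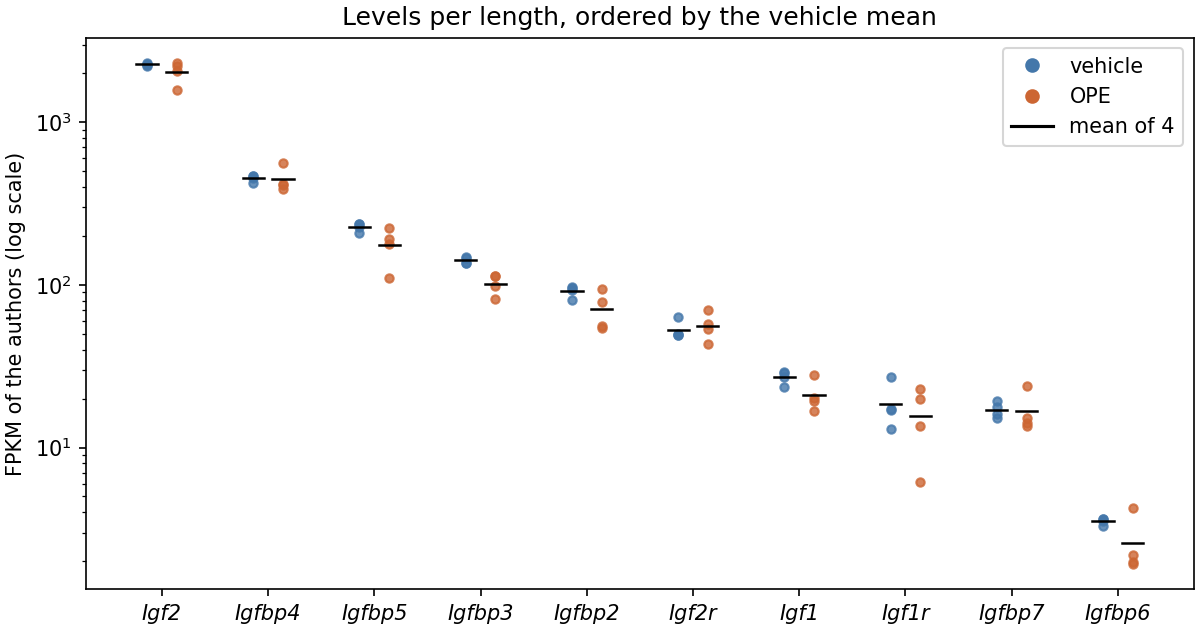
FPKM values of the authors (log axis) for the 10 genes in the 4 vehicle and 4 OPE libraries, ordered by the vehicle mean; points are libraries and black bars are means. Igf2 lies at 1585 or above in every library, and Igfbp6 at 4.23 or below.

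The ligand gene Igf2, an imprinted gene expressed from the paternal copy in most fetal tissues, had 10418, 10666, 10623 and 10325 CPM in vehicle 1 to 4 and 9739.8, 10394, 8058 and 10914 CPM in OPE 1 to 4. The vehicle libraries were tightly grouped (SD 163), OPE 4 was the highest of 8 and OPE 3 the lowest, and the groups overlapped. The log2 fold change was -0.10 ± 0.13 (SE; 95% interval -0.40 to 0.19, edgeR adjusted p = 0.811), and it was -0.02 ± 0.07 without OPE 3. Igf2 lies on chromosome 7 (142650766 to 142666816, mm10, minus strand), 72.6 kb from H19, the maternally expressed noncoding gene that shares its imprinting control region. H19 had 16487 ± 1096 CPM with vehicle and 15976 ± 792 with OPE (log2 fold change -0.05 ± 0.13, adjusted p = 0.926). The antisense gene Igf2os overlaps Igf2 by 98 exon bases and held 0.759% as many reads.

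Igf1, on chromosome 10 (87858265 to 87937042), had 202, 162, 203 and 186 CPM in vehicle 1 to 4 and 119, 141, 146 and 197 CPM in OPE 1 to 4. OPE 1, OPE 2 and OPE 3 lay below every vehicle library, while OPE 4 lay within the vehicle range. Igf1 gave a log2 fold change of -0.32 ± 0.14 (95% interval -0.64 to -0.00411, edgeR adjusted p = 0.374). The value moved with the libraries kept. In edgeR it was -0.23 ± 0.14 without OPE 1 (adjusted p = 0.575), -0.31 ± 0.16 without OPE 3 (adjusted p = 0.353) and -0.48 ± 0.11 without OPE 4 (adjusted p = 0.0764). Without OPE 1 and OPE 3 it was -0.15 ± 0.13 (adjusted p = 0.796). Macrophages are a known source of Igf1 besides mesenchymal cells, and all 15 macrophage list genes tested had a log2 fold change below 0, 7 of them past the threshold (0.438% of all genes tested were lower past it). That count was 1 without vehicle 1, vehicle 2, vehicle 4 or OPE 2 and 2 without vehicle 3. In those fits the calls over all genes also fell, from 74 to 8, 7, 19 and 7 without vehicle 1 to 4 and to 12 without OPE 2. The summed level of the 17 macrophage genes in the table was 159 to 183 CPM in the vehicle libraries and 33.2, 58.2, 83.2 and 75.6 CPM in OPE 1 to 4. In a whole-bud sample, fewer cells of a type and less RNA per cell cannot be told apart, and the part of macrophages in the Igf1 values was not tested. On the FPKM scale of the authors the ratio of Igf2 to Igf1 was 77.1 to 98.1 in vehicle libraries and 122, 110.0, 82.5 and 82.7 in OPE 1 to 4.

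The receptor gene Igf1r, on chromosome 7 (67952859 to 68226780), had the widest range of log2 CPM of the 10 genes within each group. It had 121, 56.8, 74.9 and 75.9 CPM in vehicle 1 to 4 and 103, 60.7, 29.5 and 89.2 CPM in OPE 1 to 4, so that OPE 3 was the lowest of 8 and vehicle 1 the highest. Its log2 fold change was -0.21 ± 0.33 (95% interval -0.94 to 0.52, edgeR adjusted p = 0.853), against 0.04 ± 0.30 without OPE 3 and 0.033 without vehicle 1. Of the 10 intervals this was the widest.

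Igf2r, on chromosome 17 (12682406 to 12769664), had 559.97, 433, 429 and 426 CPM in vehicle 1 to 4 and 626, 475, 415 and 509.7 CPM in OPE 1 to 4. Vehicle 1 and OPE 1 were the 2 highest libraries and the groups overlapped. Igf2r gave a log2 fold change of 0.13 ± 0.14 (95% interval -0.18 to 0.44, edgeR adjusted p = 0.764), and 0.22 ± 0.11 without OPE 3 (adjusted p = 0.356), 0.23 ± 0.14 without vehicle 1 (adjusted p = 0.639) and 0.00697 ± 0.13 without OPE 1 (adjusted p = 0.986). The antisense transcript Airn, which silences Igf2r on the paternal copy in the mouse, had 36.8 ± 4.45 CPM with vehicle and 34.6 ± 4.74 CPM with OPE (log2 fold change -0.09 ± 0.13, adjusted p = 0.83); it overlaps the body of Igf2r without shared exon bases and held 7.4% as many reads.

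Igfbp3 encodes the binding protein that carries most IGF in the blood and that also acts locally in tissues. It had 352, 349.98, 326 and 322 CPM in vehicle 1 to 4 and 199, 237, 295 and 275 CPM in OPE 1 to 4. The highest OPE library, OPE 3, was below the lowest vehicle library, and OPE 1 was the lowest of all. The means were 337 ± 16.0 and 251 ± 42.6 CPM (± SD, n = 4), and the log2 fold change was -0.42 ± 0.12 (95% interval -0.69 to -0.16, edgeR adjusted p = 0.158), so the difference did not pass over all genes. Over 20 alternative settings the log2 fold change lay between -0.51 and -0.33, and the adjusted p between 0.0139 and 0.347. It passed in 3 of them, with DESeq2 (adjusted p = 0.0416), with limma-voom with sample weights (adjusted p = 0.0139) and in edgeR without OPE 3 (-0.51 ± 0.10, adjusted p = 0.0235). The authors' deposited table gives Igfbp3 a log2 fold change of -0.37 and an adjusted p of 0.044, and it is the only 1 of the 10 below 0.05 there, where 2.68% of the genes with an adjusted p are. Of all genes tested, 1.95% passed without OPE 3. In edgeR with other scalings the share was 0.522% with DESeq2 size factors, 0.844% with library totals and 0.599% with upper quartile factors. It was 0.627% with no filter, 0.438% with a mean of at least 1 CPM, 0.49% with a fit that was not robust, 0.4% with the replicate block and 0.531% without OPE 1 and OPE 3. Leaving out vehicle 1, 2, 3 or 4 gave 0.0506%, 0.0448%, 0.122% and 0.0447%, and leaving out OPE 1, 2 or 4 gave 0.37%, 0.0761% and 1.13%.

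Levels of marker lists were set beside those of Igfbp3. Summed levels overlapped between the groups for the ectoderm list (326 to 407 CPM with vehicle, 206 to 479 with OPE). They also overlapped for the skeletal muscle list (3790 to 4203 and 2956 to 4408 CPM) and the chondrocyte list (12131 to 14186 and 11987 to 13229 CPM). The same held for the limb identity list (1546 to 1615 and 1601 to 1740 CPM). The fibroblast and tendon list had 8042 to 8763 CPM with vehicle and 7389, 7582, 8047 and 7896 CPM in OPE 1 to 4. There the overlap rested on OPE 3 alone, and OPE 1, OPE 2 and OPE 4 lay below every vehicle library. The median of the macrophage list, as log2 CPM against the vehicle mean, was -1.95, -1.11, -0.79 and -1.06 in OPE 1 to 4, beside Igfbp3 differences of -0.76, -0.51, -0.19 and -0.30. Igfbp3 is a known target of hypoxia-inducible factors, and 19 of 19 genes tested of the hypoxia and glycolysis list had a log2 fold change below 0. Of these, 0 reached an edgeR adjusted p under 0.05, while DESeq2 called 5 and limma-voom 0. At an unadjusted edgeR p under 0.05 there were 16, beside 2042 of the 15517 genes tested. The summed level of the hypoxia and glycolysis list was 4146, 3723, 2804 and 2025 CPM in vehicle 1 to 4 and 1535, 2401, 2268 and 1705 CPM in OPE 1 to 4. Vehicle 4 lay within the OPE range of this list and above the OPE range of Igfbp3. The list and Igfbp3 both fell in order from vehicle 1 to vehicle 4, and OPE 1 was the lowest of all libraries in both. The summed endothelial level was 452 to 515 CPM with vehicle and 279 to 408 CPM with OPE, with 2 of 16 genes lower past the threshold (1 without OPE 1, OPE 2 or any vehicle library), beside 0.438% of all genes tested. The median of the endothelial list was -0.93, -0.33, -0.17 and -0.22 in OPE 1 to 4. The list of hypertrophic chondrocyte and osteoblast genes summed to 433 to 632 CPM with vehicle and 319 to 406 CPM with OPE, with 5 of 12 genes tested lower past the threshold. Over all genes tested, 0.438% were lower past it. The median of this list was -0.97, -1.04, -0.73 and -0.55 in OPE 1 to 4. The count of 5 became 0 without vehicle 2, vehicle 4 or OPE 2, 1 without vehicle 1 or vehicle 3, and 3 without OPE 1. In those fits the calls over all genes also fell, from 74 to 8, 7, 19 and 7 without vehicle 1 to 4. They were 58 without OPE 1 and 12 without OPE 2. The part of these cell types and of hypoxia in the Igfbp3 values was not tested.

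By the root mean square difference of log2 CPM profiles over the 8 libraries, each centred on its mean, the 5 genes most like Igfbp3 were Eno3 (0.0663), Ncaph (0.0672), Rangap1 (0.0693), Dtl (0.0711) and Mad1l1 (0.0719). Their log2 fold changes ranged from -0.45 for Eno3, the muscle enolase, to -0.33 for Rangap1, a GTPase activator of nuclear transport, and none passed (lowest adjusted p = 0.147). As these genes were chosen by their profiles over both groups, fold changes near that of Igfbp3 follow from the choice. Igfbp3 lies on chromosome 11 (7206086 to 7213923, minus strand), 3.54 kb from Igfbp1, which is read on the plus strand and encodes a binding protein made chiefly by the liver. Igfbp1 had between 0.508 and 1.17 CPM in vehicle libraries and between 0.277 and 0.902 CPM in OPE libraries (log2 fold change -0.55 ± 0.44, adjusted p = 0.662), so its pattern was not resolved at this depth.

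Igfbp2 and Igfbp5 are neighbours on chromosome 1, on opposite strands with 5.46 kb between them (Igfbp2 at 72824503 to 72852474 and Igfbp5 at 72857932 to 72874884). Igfbp2, a binding protein with preference for IGF2, had 126, 123, 119 and 103 CPM in vehicle 1 to 4 and 73.6, 102, 133 and 70.8 CPM in OPE 1 to 4. OPE 1, OPE 2 and OPE 4 lay below every vehicle library and OPE 3 above all of them. Igfbp2 gave -0.31 ± 0.18 on the log2 scale (edgeR adjusted p = 0.502) with all libraries and -0.52 ± 0.12 without OPE 3 (adjusted p = 0.0552). Igfbp5, which binds matrix and is widespread in developing cartilage and muscle, had 1413, 1222, 1404 and 1330.4 CPM in vehicle 1 to 4 and 1161, 1072, 714 and 1339 CPM in OPE 1 to 4. Here OPE 3 was the lowest of 8 and OPE 4 lay within the vehicle range. Its log2 fold change was -0.32 ± 0.17 (adjusted p = 0.448), and -0.17 ± 0.09 without OPE 3 (adjusted p = 0.316). Of the 8 libraries, OPE 3 thus had the highest value of Igfbp2 and the lowest of its neighbour.

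Igfbp4, on chromosome 11 (99041244 to 99054392), encodes the binding protein that the protease PAPP-A cleaves. It had 1605, 1744, 1751 and 1692 CPM in vehicle 1 to 4 and 1503, 1578, 2324 and 1599.8 CPM in OPE 1 to 4. OPE 3 was the highest of 8, and the other 3 OPE libraries all lay below the lowest vehicle library. Igfbp4 gave a log2 fold change of 0.04 ± 0.15 (95% interval -0.28 to 0.36, edgeR adjusted p = 0.939), and it was -0.12 ± 0.07 without OPE 3 (adjusted p = 0.364) and -0.015 when libraries were scaled to their totals alone, so no direction is given.

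Igfbp6 and Igfbp7 were low. Igfbp6, on chromosome 15 (102144362 to 102149511), encodes a binding protein with a strong preference for IGF2 and had 70 to 86 reads per vehicle library and 32 to 73 per OPE library. That is 4.01, 3.57, 3.98 and 3.82 CPM in vehicle 1 to 4 and 2.45, 2.18, 5.06 and 2.13 CPM in OPE 1 to 4. OPE 1, OPE 2 and OPE 4 were below every vehicle library and OPE 3 above all. Igfbp6 gave -0.39 ± 0.27 on the log2 scale (edgeR adjusted p = 0.604), and -0.76 ± 0.20 without OPE 3 (adjusted p = 0.0673). Igfbp7, on chromosome 5 (77349240 to 77408045), encodes a low-affinity relative found around blood vessels. It had between 18.2 and 22.9 CPM in the vehicle libraries and 18.6, 16.4, 31.0 and 17.1 CPM in OPE 1 to 4, again with OPE 3 highest. Its log2 fold change of 0.03 ± 0.19 (adjusted p = 0.973) was -0.23 ± 0.11 without OPE 3 (adjusted p = 0.318), and its sign changed between scalings. Igfbp7 shares 85 exon bases with Polr2b on the other strand, which held 403% as many reads, so its values are uncertain, because no source used here gives the strand setting of the counting.

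**Figure D3:**
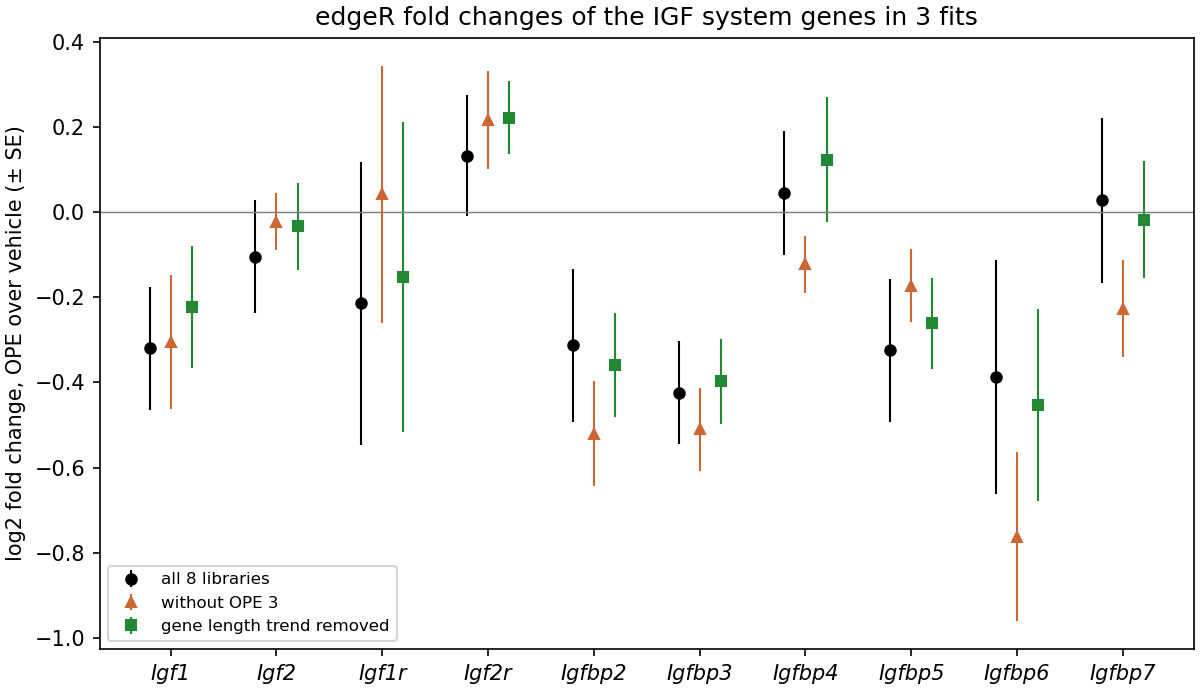
Log2 fold change of OPE over vehicle (± SE) for the 10 genes in 3 edgeR fits, with all libraries (black circles), without OPE 3 (orange triangles) and with each library's trend on gene length removed (green squares). Igfbp3 lies between -0.51 and -0.40 in these fits, Igfbp2 and Igfbp6 lie lower without OPE 3, and Igf1r, Igfbp4 and Igfbp7 lie on both sides of 0.

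OPE 3 was the highest of the 8 libraries for Igfbp2, Igfbp4, Igfbp6 and Igfbp7 and the lowest for Igf2, Igf1r, Igf2r and Igfbp5, 8 of the 10 genes, while over all genes tested it was highest in 30.9% and lowest in 26.8%. Against the mean of the other OPE libraries, OPE 3 was higher by 1.13 on the log2 scale for Igfbp6, 0.83 for Igfbp7 and 0.71 for Igfbp2, the 3 shortest of the 10 genes. Genes of like length had medians of 0.65, 0.48 and 0.48 in OPE 3. For the long genes Igf2r and Igf1 the differences were -0.36 and -0.03, beside a median of -0.43 for genes of like length. Igf1r and Igfbp4 differed by -1.48 and 0.58 where genes of like length had medians of -0.15 and -0.07. When the trend on gene length was removed from each library, 0 of the 10 genes passed with edgeR, although 2.06% of all genes then did. In that fit 4 of the 10 were at an unadjusted p under 0.05, but the share of all genes at that level was not counted.

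**Figure D4:**
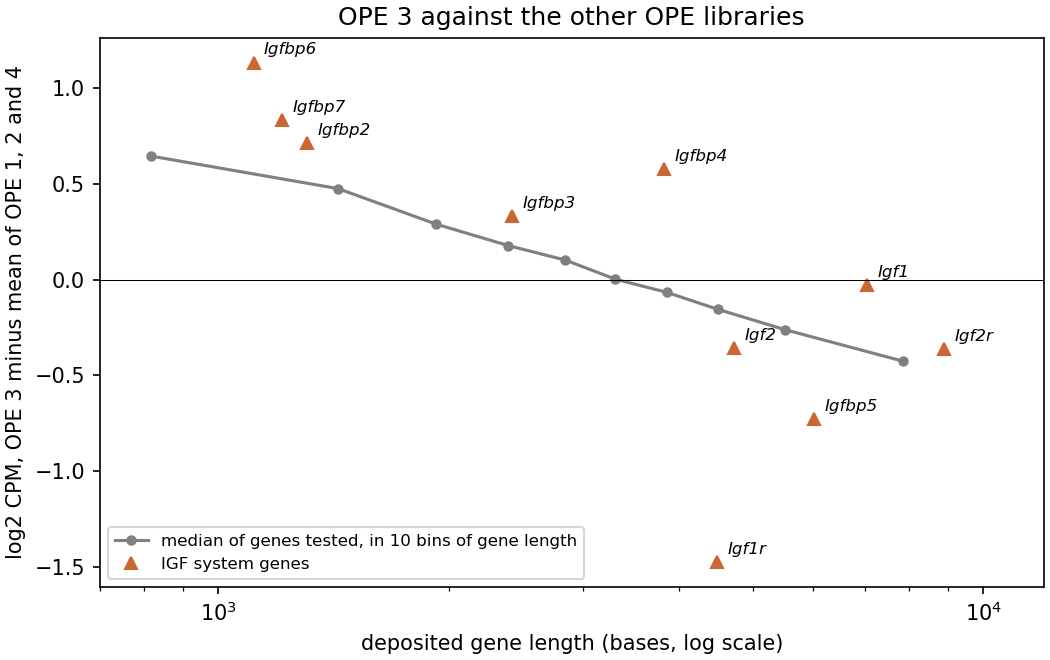
Difference in log2 CPM between OPE 3 and the mean of OPE 1, 2 and 4 (vertical axis) against the deposited gene length (log axis) for the 10 genes (triangles) and for the medians of 10 length bins of all genes tested (grey line). The grey line runs from 0.65 to -0.43, Igfbp6 has the highest of the 10 values and Igf1r lies at -1.48.

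The make-up of the binding protein transcripts does not depend on library scaling. Of the summed FPKM of the 6 binding protein genes, Igfbp4 held 45.8% to 49.7% in the vehicle libraries and 52.9%, 52.7%, 61.9% and 50.7% in OPE 1 to 4, so that every OPE library lay above every vehicle library. The margin was narrow with exon union lengths, 49.8% in OPE 4 against 49.6% in vehicle 2. In CPM, Igfbp4 itself lay below every vehicle library in OPE 1, OPE 2 and OPE 4. Igfbp3 held 14.3% to 15.9% with vehicle and 11.1%, 12.5%, 12.5% and 13.8% in OPE 1 to 4, all below the vehicle range. Igfbp5 held 24.4 ± 1.52% with vehicle and 22.0 ± 6.82% with OPE, with 12.1% in OPE 3. The summed level of the 6 genes was 918 to 951 FPKM with vehicle and 737, 785, 909.6 and 826 FPKM in OPE 1 to 4. As shares add up to the same whole, a higher share of 1 gene comes with lower shares of others, and no test was made of these sums. How often such shares separate between the groups for other sets of genes was not counted.

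**Figure D5:**
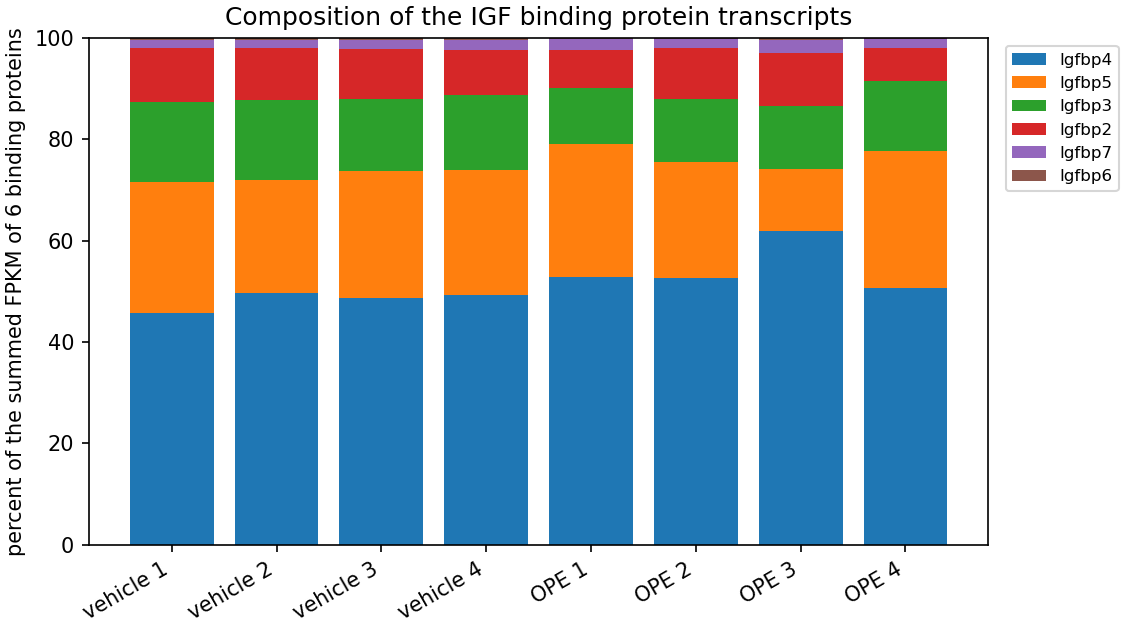
Percent of the summed FPKM of the 6 binding protein genes held by each gene in each library (stacked bars). Igfbp4 is the largest part of each bar, from 45.8% to 61.9%, and the Igfbp3 part is between 14.3% and 15.9% in vehicle libraries and between 11.1% and 13.8% in OPE libraries.

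Around the 10 genes, 78 further genes of the pathway were listed and 72 were tested. None passed in the edgeR fit of all libraries. At an unadjusted p under 0.05 there were 9 of the 72, beside 2042 of the 15517 genes tested. Of the 72, 46 had a log2 fold change below 0 and 26 above. Their median was -0.05 against 0.01 over all genes tested. Without OPE 3 the median of the 73 then tested was 0.008, against 0.001 over all genes. With length trends removed the median was -0.005, against 0.056 over all genes. Without OPE 3, 16 were at an unadjusted p under 0.05, but the share of all genes at that level was not counted in that fit. DESeq2 called 3 of 73 (Htra3 and Stc1 lower, Klf15 higher), limma-voom called 0 of 72, and limma-voom with sample weights called these 3 and Gatm. Other edgeR fits called Htra3 with library totals and with the replicate block, Htra3 and Klf15 without OPE 3, and Htra3, Klf15 and Stc1 with no filter, with length trends removed and without OPE 4. Of the 72 genes 7 had all OPE values on the same side of the vehicle range, 6 lower and 1 higher, beside 9.49% of all genes tested (5.44% lower), so the pathway genes lay near the background. Over all genes, 74 of 15517 passed with edgeR.

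Proteases and inhibitors govern the release of IGF from the binding proteins. Of 8 genes tested, 7 were below 0 on the log2 scale (median -0.16). Htra3, a secreted serine protease that cleaves IGF binding proteins in vitro, had 52.4, 53.6, 59.2 and 59.4 CPM in vehicle 1 to 4 and 26.4, 30.2, 39.5 and 42.8 CPM in OPE 1 to 4. The groups did not overlap, and the log2 fold change was -0.70 ± 0.15 (edgeR adjusted p = 0.0656). Stc1, a stanniocalcin and thus a relative of the inhibitor of PAPP-A encoded by Stc2, had 29.7, 25.0, 25.6 and 20.6 CPM in vehicle 1 to 4 and 10.2, 16.1, 11.4 and 18.0 CPM in OPE 1 to 4 (-0.86 ± 0.19, adjusted p = 0.073). Every OPE value of Stc1 was below every vehicle value. Adam12, a metalloprotease that cleaves IGFBP-3 and IGFBP-5, gave -0.27 ± 0.19 (adjusted p = 0.583).

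Among 27 tested genes of the signalling chain the median log2 fold change was -0.05, and 16 were below 0. Without OPE 3 the median was 0.02. Grb14, an adaptor that restrains insulin receptor signalling, had the smallest p, with 3.20 ± 0.216 CPM with vehicle and 2.21 ± 0.291 CPM with OPE (-0.53 ± 0.19, edgeR adjusted p = 0.251) and no overlap between groups. The transcription factor gene Foxo3 gave -0.26 ± 0.13 and the PI3-kinase regulatory subunit gene Pik3r3 -0.33 ± 0.16 (adjusted p = 0.417 and 0.419). Of 5 tested relatives of the receptors and binding proteins, the smallest p belonged to Igfbp1, above, and to Itgb1 and Lrp1, cell surface partners of binding proteins, with 0.11 ± 0.09 and 0.13 ± 0.12 (adjusted p = 0.667 and 0.747). Igfals and Igfbpl1 were too low to be tested, with 16 and 53 reads over the vehicle libraries and 3 and 24 over the OPE libraries. No gene named Ins1 or Ins2 was among the genes given.

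Of 10 genes at the Igf2 locus or acting on Igf2 RNA, 9 were below 0 on the log2 scale and the median was -0.12. Without OPE 3 the median was -0.03. Hmga2, a chromatin protein that promotes Igf2 expression, had 127 ± 7.96 CPM with vehicle and 107 ± 2.29 CPM with OPE (-0.25 ± 0.08, edgeR adjusted p = 0.203). Igf2os had 83.6 ± 5.58 and 69.8 ± 3.17 CPM (-0.26 ± 0.08, adjusted p = 0.206), and for both genes every OPE value was below every vehicle value. Igf2os shares 98 exon bases with the far more abundant Igf2 on the other strand. Its values are uncertain, because the strand setting of the counting is not given. Igf2bp2, an RNA-binding protein that attaches to Igf2 mRNA, gave 0.10 ± 0.09 (adjusted p = 0.711). Of 16 imprinted growth genes, Igf2, Igf2r and H19 included, 12 had a log2 fold change below 0 and the smallest p belonged to Gatm, an enzyme of creatine synthesis, Mest and Gnas (-0.49 ± 0.20, -0.30 ± 0.14 and -0.28 ± 0.16, adjusted p = 0.328, 0.371 and 0.495).

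FOXO factors are held in the cytoplasm when IGF signalling is active, and 13 of their targets were tested. Their log2 fold changes were above 0 for 8 and below for 5, with a median of 0.05. Klf15, a regulator of amino acid and glucose metabolism that glucocorticoids also induce, had between 7.5 and 8.13 CPM in the vehicle libraries and 16.3, 12.1, 15.6 and 9.99 CPM in OPE 1 to 4 (0.77 ± 0.16, edgeR adjusted p = 0.0675). All 4 OPE values of Klf15 lay above the vehicle range. The muscle ubiquitin ligase genes Fbxo32 and Trim63 gave values of opposite sign, -0.37 ± 0.14 and 0.32 ± 0.16 (adjusted p = 0.282 and 0.42). Fbxo32 had 13.3, 13.4, 9.71 and 13.2 CPM in OPE 1 to 4, all below the lowest vehicle value of 14.6 CPM. Of the 13 targets, only Klf15 (higher) and Fbxo32 (lower) were separated in this way, beside 9.49% of all genes tested.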

How the data were processed

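Poly-A RNA of cultured forelimb buds was copied from random hexamers (per the labels' protocols). Tools named in the submitters' processing notes are CASAVA 1.8, STAR 2.5, HTSeq 0.6.1, DESeq2 (version given as 2) and the build mm10, without roles; no source used here gives the annotation release or strand setting. Per the file headers, the authors deposited raw read counts, a signal (counts divided by a size factor, not used for tests), FPKM values, a log2 fold change, and p-values. Libraries were grouped by title.

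Tests on the counts used edgeR 4.0.16 under R 4.3.3 (filterByExpr, TMM, robust quasi-likelihood, group as the only term, two-sided), checked on simulated data. The SE is the log2 fold change over the square root of F. CPM uses TMM-scaled totals, and log2 CPM a prior count of 2. Alternatives used other scalings, filters, DESeq2 1.42.0, limma 3.58.1 (voom), the replicate number as a block, removal of length trends and left-out libraries; the exon union length was added after the data had been seen. Replicates differed by more than counting error (lowest chi-square per df 4.8). Depth limits the precision of low genes such as Igfbp6.

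Named were the 10 genes whatever their p, the 3 of smallest p in each of 6 pathway lists, and the 5 genes most like the one of smallest p; levels of marker lists accompany them, as do Tbx5, Pitx1 and Prrx1, H19 and Airn, chosen as checks or neighbours. Members and lists were chosen with earlier results of these data known. Promoter sequences are from RefSeq.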

Additional observations from a re-analysis of the deposited data

Results flagged for a closer look

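Of 20 groups of 4 values examined (10 genes in 2 groups), 4 held a value whose gap to its nearest neighbour took up nearly the whole range of the group; chance alone gives this in about 1 group in 20. In vehicle 1, Igf2r had 559.97 CPM, the highest of the vehicle libraries. In OPE 3, Igfbp4 had 2324 CPM, Igfbp6 had 5.06 CPM and Igfbp7 had 31.0 CPM, each the highest of the OPE libraries.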

How the results depend on the processing

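Under 20 alternatives, 6 of the 10 IGF system genes kept the direction of their log2 fold change in all, and 9 never passed. The number of IGF system genes past the threshold was 0 with all libraries and 1 (Igfbp3) with DESeq2 and with limma-voom with sample weights, and 0 to 1 when 1 library was left out. Over all genes 74 passed. This number was 131 with library totals, 136 without a filter, 504 with DESeq2, 445 with limma-voom with sample weights and 320 with length trends removed, and 7 to 308 when 1 library was left out (8, 7, 19 and 7 without vehicle 1 to 4, and 58, 12, 308 and 178 without OPE 1 to 4); the cause was not tested. Of the 74 genes 68 were lower and 6 higher, against 168 and 152 with length trends removed, 336 and 168 with DESeq2 and 314 and 131 with sample weights. Signs changed for Igfbp7 (-0.034 with library totals, -0.00259 with upper quartile factors, -0.027 with limma-voom, -0.25 with sample weights, -0.00963 with the replicate block, -0.018 with length trends removed, -0.28 without OPE 1 and OPE 3, -0.23 to 0.12 with 1 library left out), for Igfbp4 (-0.015 with library totals, -0.098 with sample weights, -0.094 without OPE 1 and OPE 3, -0.12 to 0.10 with 1 library left out), for Igf2 (0.022 without OPE 1 and OPE 3) and for Igf1r (-0.46 to 0.042 with 1 library left out). The replicate block gave 62 genes over all and no call among the 10 (of the other pathway genes it called Htra3), with Igfbp3 at -0.44 ± 0.13 (adjusted p = 0.183). Same-numbered libraries had correlations of their deviations between 0.0126 and 0.309, with 1 of 4 over 0.1, and 2 of 4 vehicle libraries correlated best with their own number, so the numbers were not taken to pair the libraries. The Igfbp4 share of the binding proteins, as the mean of the vehicle libraries, was 48.4% on the FPKM scale and 48.1% with exon union lengths.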
